A study of Mus musculus with 12 samples.

Results

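A set of 10 endothelial genes, listed as sinusoidal or capillary, was followed in liver RNA of mice with carbon tetrachloride (CCl4) fibrosis. They were taken by name from a table of 21936 genes. The 7 sinusoidal genes were Stab1, Stab2, Lyve1, Clec4g, Fcgr2b, Oit3 and Gata4, and the 3 capillary genes were Cd34, Plvap and Pecam1. All male C57BL/6 mice, 6 weeks old on purchase, had received CCl4 at 1 mL/kg by intraperitoneal injection, 2 times a week for 8 weeks. The liver fibrosis group (LFG) was sacrificed then, the regression group (REG) was given 200 µL of PBS, and the hADMSCs-Exo group was given 250 µg of protein of exosomes from human adipose mesenchymal stem cells in 200 µL of PBS. Both were injected by the tail vein 2 times a week for 4 weeks, so that LFG differed from them also by those weeks without CCl4, and no library of mice without CCl4 was analysed here. Each group had 3 libraries, numbered as in the labels. The columns named MSC_E were taken as hADMSCs-Exo, which the sample labels call Liver Exo.

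Sinusoidal endothelial cells line the liver's smallest vessels. They are perforated by open pores, lack an ordinary basement membrane, and clear waste molecules, immune complexes and lipoprotein remnants from blood through scavenger and lectin receptors. In fibrosis they can lose the pores, lay down a basement membrane and take up proteins of continuous capillaries, a change called capillarization. The transcription factor GATA4 is known to hold the sinusoidal program, and its loss from this endothelium in mice leads to capillarization with matrix deposition.

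The sequences just before 4 of the genes are given, as they lie at opposite sides of this balance: the scavenger receptors Stab1 and Stab2 and the lectin Clec4g on the sinusoidal side and Cd34 on the capillary side. RefSeq windows of GRCm38.p6 matched 5 of the 10 genes by name. That of Fcgr2b lay inside the gene as the table places it and was not printed. The Stab1 stretch is chr14:31168642-31168891 (minus strand), that of Stab2 chr10:87008026-87008192 (minus strand), that of Clec4g chr8:3720652-3720901 (minus strand) and that of Cd34 chr1:194938571-194938818 (plus strand). Each runs 5′ to 3′ and ends at the base before the first annotated start. Capitals mark, on either strand, GATA words (A or T, then GATA, then A or G) and the ETS word AGGAAG.
Stab1: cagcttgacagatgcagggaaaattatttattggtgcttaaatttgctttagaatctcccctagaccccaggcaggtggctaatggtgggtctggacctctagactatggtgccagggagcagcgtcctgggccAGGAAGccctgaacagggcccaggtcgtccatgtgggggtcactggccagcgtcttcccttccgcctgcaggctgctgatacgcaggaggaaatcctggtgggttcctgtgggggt
Stab2: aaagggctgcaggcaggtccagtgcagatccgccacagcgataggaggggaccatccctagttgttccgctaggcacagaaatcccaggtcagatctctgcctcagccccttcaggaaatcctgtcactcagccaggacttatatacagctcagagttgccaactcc
Clec4g: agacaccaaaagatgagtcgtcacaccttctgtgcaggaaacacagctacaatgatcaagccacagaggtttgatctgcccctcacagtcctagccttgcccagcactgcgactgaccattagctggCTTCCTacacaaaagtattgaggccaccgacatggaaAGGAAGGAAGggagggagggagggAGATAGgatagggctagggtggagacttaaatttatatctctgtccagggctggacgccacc
Cd34: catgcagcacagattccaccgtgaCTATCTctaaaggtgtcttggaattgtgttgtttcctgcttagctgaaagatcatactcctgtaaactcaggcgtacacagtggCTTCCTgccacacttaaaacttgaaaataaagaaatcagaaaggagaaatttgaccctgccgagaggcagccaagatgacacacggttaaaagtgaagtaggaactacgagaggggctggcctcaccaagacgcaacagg
Clec4g had 1 GATA word at position -62, counted back from the gene's start, and 3 ETS words between -123 and -82, of which the last 2 overlap each other. Cd34 had 1 GATA word at -224 and 1 ETS word at -140, both on the opposite strand. Stab1 had 1 ETS word at -116 and no GATA word, and Stab2 had neither in its shorter stretch. In the same stretch of 250 bases, 27.1% of 27025 mouse promoters held a GATA word and 29.2% the ETS word, and in the 167 bases of the Stab2 stretch 20.9% and 19.7% did. These matches describe letters and not bound sites.

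The 9 libraries held between 13837445 and 19840917 counted reads. LFG replicate 3 stood apart, with a Pearson correlation of 0.834 and 0.874 with the other LFG libraries across genes, against at least 0.959 for every other pair within a group. Its macrophage markers summed to 217 CPM (counts scaled to library size) and its stellate cell and fibroblast markers to 67.3 CPM, against 1763 to 2294 CPM and 874 to 1319 CPM in LFG 2 and LFG 1. Results of the 10 genes and their lists against LFG are therefore given with and without it. Albumin (Alb) lay between 64140 and 139500 CPM, as a check of the liver label. Library size was corrected by TMM. Each pair of groups was tested with the two-sided quasi-likelihood test of edgeR, and p-values were adjusted after Benjamini and Hochberg over all genes that passed its filter. To be called, a gene needed an adjusted p under 0.05 and a log2 fold change of 1 or more in either direction. All 10 genes passed the filter. Since the labels do not say more of the animals behind each library, p-values measure the spread between these samples.

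By level, the capillary gene Plvap and the sinusoidal lectin Clec4g led and Cd34 came last. On the authors' FPKM, which accounts for gene length, the mean over 9 libraries was 20.9 ± 12.2 (SD, n = 9) for Plvap, 10.1 ± 5.34 for Clec4g, 6.39 ± 3.82 for Fcgr2b and 4.62 ± 3.71 for Oit3. Stab1 followed at 3.65 ± 1.72 FPKM, Stab2 at 3.18 ± 1.38, Gata4 at 3.15 ± 0.996 and Pecam1 at 2.85 ± 1.71. Lyve1 had 1.75 ± 1.34 FPKM and Cd34 0.507 ± 0.440. No neighbour in this order differed from the next by more than the larger of their SDs. Pecam1 exceeded Lyve1, and Lyve1 exceeded Cd34, in 9 of 9 libraries. Oit3, Stab1, Stab2 and Gata4 changed places between libraries, the higher of 2 neighbours by mean being higher in only 4 or 5 of 9. On TMM CPM, Oit3 and Cd34 spanned the widest range, 14.1-fold and 13.5-fold from the lowest library to the highest, and Stab1 and Gata4 the narrowest, 2.17-fold and 2.32-fold.

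**Figure D1:**
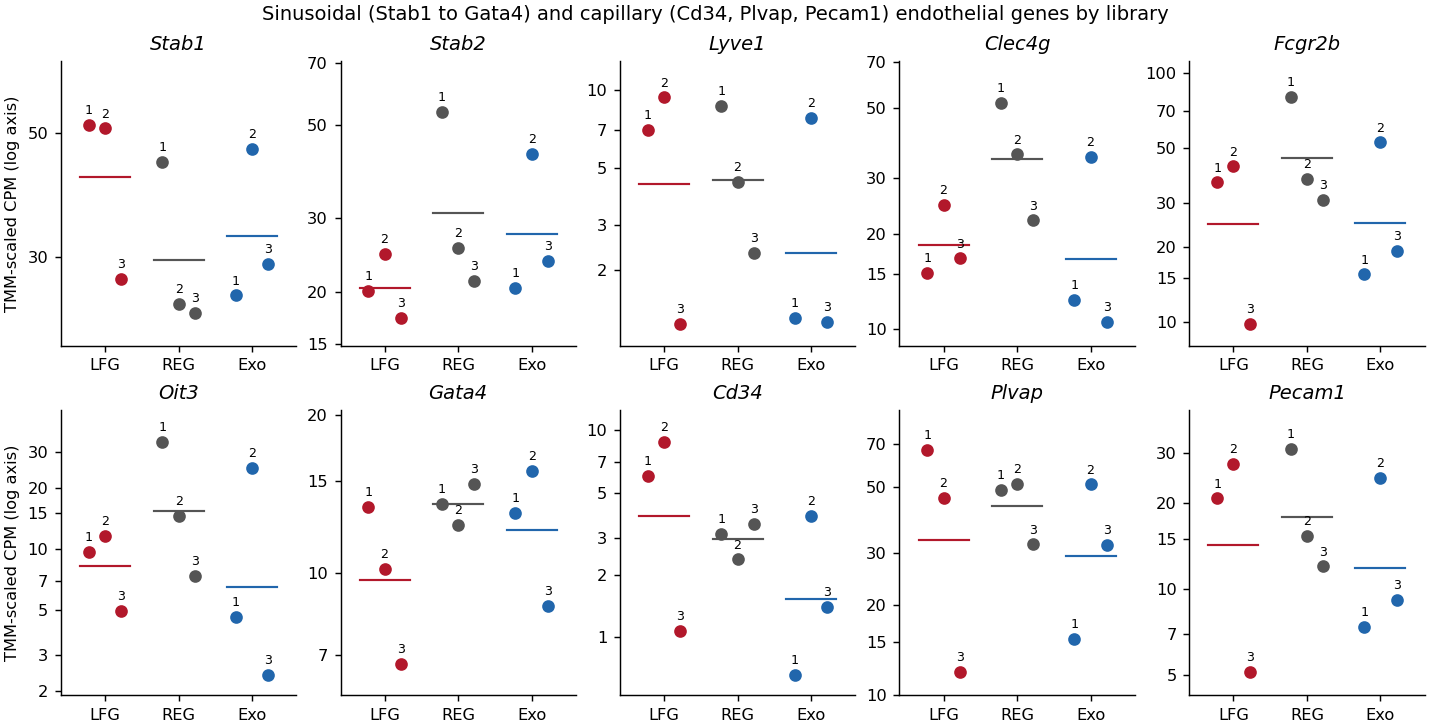
Each panel plots one gene as TMM-scaled CPM on a log axis, with 1 point per library labelled by replicate number (Exo is hADMSCs-Exo) and a bar at the geometric mean of the 3 libraries. Replicate 2 is the highest hADMSCs-Exo library in all 10 panels, replicate 3 the lowest LFG library in 9 of 10, and no panel has groups that separate.

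Stab1 and Stab2 encode the stabilins, large scavenger receptors that take up hyaluronan and other waste molecules. Stab1 stood at 51.7, 50.9 and 27.4 CPM in LFG 1, 2 and 3, at 44.3, 24.8 and 23.8 CPM in REG 1, 2 and 3, and at 25.6, 46.8 and 29.2 CPM in hADMSCs-Exo 1, 2 and 3. LFG 1 and LFG 2 were the highest of all 9 libraries, while LFG 3 lay among the low ones, so the groups overlapped. The log2 fold change was -0.48 (SE 0.35, edgeR adjusted p = 0.625) for REG vs LFG and -0.38 (SE 0.34, edgeR adjusted p = 0.895) for hADMSCs-Exo vs LFG. In bulk RNA fewer cells of a type and less RNA per cell cannot be told apart.

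Stab2 lay the other way. It was 20.1, 24.6 and 17.3 CPM in LFG 1, 2 and 3, 53.6, 25.5 and 21.3 CPM in REG, and 20.4, 42.7 and 23.7 CPM in hADMSCs-Exo. LFG had the lowest mean and the least spread, and the high values were single libraries, REG 1 and hADMSCs-Exo 2. Its log2 fold change was 0.70 (SE 0.38, edgeR adjusted p = 0.518) for REG vs LFG and 0.46 (SE 0.32, edgeR adjusted p = 0.860) for hADMSCs-Exo vs LFG. Without REG 1 the first was 0.21. Both stabilins are on the minus strand. Stab1, on chromosome 14 (GRCm38, 31139013-31168641), overlaps the end of Nt5dc2 by 112 bases, and Stab2, on chromosome 10 (86841198-87008025), overlaps 3 antisense genes and 2 pseudogenes. The use of strand in counting is not given in the sources used here, so reads in these overlaps cannot be assigned.

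Lyve1, the hyaluronan receptor shared with lymphatic vessels, had 7.02, 9.37 and 1.24 CPM in LFG, 8.69, 4.41 and 2.34 CPM in REG, and 1.31, 7.78 and 1.27 CPM in hADMSCs-Exo, each for replicates 1, 2 and 3. Each group thus ran from a high library to one at a small part of it. The lowest counts behind these values were 14 reads in LFG 3, 22 in hADMSCs-Exo 1 and 20 in hADMSCs-Exo 3. The log2 fold change was -0.19 (SE 0.75) for REG vs LFG and -0.80 (SE 0.94) for hADMSCs-Exo vs LFG, with edgeR adjusted p = 0.943 and 0.920.

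Clec4g encodes LSECtin, a C-type lectin of the sinusoid. Replicates 1, 2 and 3 had 15.1, 24.8 and 16.8 CPM in LFG, 52.1, 35.7 and 22.1 CPM in REG and 12.4, 35.1 and 10.6 CPM in hADMSCs-Exo. REG 1 and REG 2 were above every LFG library, and REG 3 was below LFG 2. Clec4g had the smallest unadjusted p of the 10 genes in REG vs LFG, 0.0317, with a log2 fold change of 0.96 (SE 0.36), but its edgeR adjusted p was 0.407. In hADMSCs-Exo vs LFG its log2 fold change was 0.018 (SE 0.49, edgeR adjusted p = 0.998).

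Fcgr2b, the inhibitory Fc receptor by which sinusoidal endothelium clears immune complexes, had 36.4, 42.1 and 9.85 CPM in LFG, 80.2, 37.7 and 30.9 CPM in REG, and 15.6, 52.6 and 19.4 CPM in hADMSCs-Exo. Oit3, a secreted protein made by liver endothelium, had 9.71, 11.6 and 4.97 CPM in LFG, 33.9, 14.6 and 7.35 CPM in REG, and 4.64, 25.1 and 2.40 CPM in hADMSCs-Exo. REG 1 and hADMSCs-Exo 2 were the highest of the 9 libraries for both genes. The lowest was LFG 3 for Fcgr2b and hADMSCs-Exo 3 for Oit3, and the groups overlapped. REG vs LFG gave a log2 fold change of 0.76 (SE 0.58, edgeR adjusted p = 0.637) for Fcgr2b and 1.09 (SE 0.59, edgeR adjusted p = 0.518) for Oit3. Without REG 1 these were 0.25 and 0.36. hADMSCs-Exo vs LFG gave -0.041 (SE 0.65, edgeR adjusted p = 0.997) for Fcgr2b and 0.27 (SE 0.84, edgeR adjusted p = 0.971) for Oit3. Fcgr2b is close in sequence to the other Fc gamma receptor genes, which leaves its counts uncertain.

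Gata4 was the steadiest of the sinusoidal genes within REG. It had 13.4, 10.2 and 6.74 CPM in LFG, 13.6, 12.4 and 14.8 CPM in REG, and 13.0, 15.7 and 8.67 CPM in hADMSCs-Exo. LFG 1 lay within the range of REG, and only LFG 2 and LFG 3 were below it. The log2 fold change was 0.42 (SE 0.28, edgeR adjusted p = 0.597) for REG vs LFG and 0.27 (SE 0.35, edgeR adjusted p = 0.923) for hADMSCs-Exo vs LFG. Hepatocytes and stellate cells are also known to express Gata4.

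Among the capillary genes, Cd34 had the largest differences from LFG. This sialomucin of capillary endothelium, also found on fibroblasts and blood progenitors, had 6.01, 8.81 and 1.06 CPM in LFG, 3.14, 2.37 and 3.52 CPM in REG and 0.654, 3.86 and 1.39 CPM in hADMSCs-Exo, each for replicates 1, 2 and 3. LFG 1 and LFG 2 were above all other libraries, and LFG 3, with 12 reads, was below all of REG and near the low end of hADMSCs-Exo. Its log2 fold change was -0.82 (SE 0.68, edgeR adjusted p = 0.661) for REG vs LFG and -1.46 (SE 0.89, edgeR adjusted p = 0.833) for hADMSCs-Exo vs LFG. Without LFG 2 these were -0.25 and -0.89, and without hADMSCs-Exo 2 the second was -2.39. Cd34 (chromosome 1, 194938819-194961279, plus strand) overlaps the antisense gene Gm16897 by 5521 bases, Clec4g overlaps the antisense Gm16553 by 10848 bases, Fcgr2b the antisense Gm38204 by 3175 bases and Plvap the protein-coding Gtpbp3 by 1819 bases, all on the opposite strand.

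Plvap forms the diaphragms of capillary pores and is scarce in normal sinusoids. It stood at 66.7, 46.0 and 12.0 CPM in LFG, 48.9, 51.2 and 32.1 CPM in REG and 15.5, 51.1 and 31.9 CPM in hADMSCs-Exo. LFG held both the highest and the lowest of the 9 values. Its log2 fold change was 0.086 (SE 0.55, edgeR adjusted p = 0.967) for REG vs LFG and -0.37 (SE 0.66, edgeR adjusted p = 0.953) for hADMSCs-Exo vs LFG. Pecam1, the junction protein CD31, had 20.8, 27.5 and 5.14 CPM in LFG, 31.0, 15.4 and 12.0 CPM in REG, and 7.37, 24.6 and 9.17 CPM in hADMSCs-Exo. Its highest value was that of REG 1 and its lowest that of LFG 3, with overlap of all groups. REG vs LFG gave a log2 fold change of 0.13 (SE 0.62, edgeR adjusted p = 0.951) and hADMSCs-Exo vs LFG -0.41 (SE 0.69, edgeR adjusted p = 0.950).

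With all libraries, none of the 10 genes was called in REG vs LFG or hADMSCs-Exo vs LFG, and 0% of 12517 and 0% of 12489 tested genes were. Without adjustment, at a p under 0.05 and the same fold limit, 537 and 374 genes passed, none of them among the 10. DESeq2 called 239 and 60 genes, again none of the 10, and limma with voom and quality weights called 1285 and 1, of which Cd34 was 1 in REG vs LFG (log2 fold change -1.43, adjusted p = 0.0319). All 10 genes had overlapping groups in both comparisons, where 18.9% and 12.3% of tested genes did not overlap. The median log2 fold change in REG vs LFG was 0.70 over the sinusoidal genes and 0.086 over the capillary genes, beside -0.068 over all genes tested. In hADMSCs-Exo vs LFG these medians were 0.018, -0.41 and -0.059. Single libraries moved them: without REG 1 the first pair was 0.25 and -0.35, without hADMSCs-Exo 2 the second pair was -0.73 and -1.13, and without hADMSCs-Exo 3 it was 0.32 and -0.33. Scaling by library totals alone moved the median of all genes to -0.27 and -0.18. It then put Plvap at -0.28 and Pecam1 at -0.18 in REG vs LFG and Clec4g at -0.091 in hADMSCs-Exo vs LFG, so that the direction of these 3 genes flipped with the scaling, though relative to the shifted median only Plvap of the 3 lay below it.

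Leaving out LFG 3 left 2 LFG libraries, and Cd34 was then lower in REG than in LFG, with a log2 fold change of -1.26 (SE 0.31, edgeR adjusted p = 0.0348). It was the only one of the 10 genes called, in a comparison where 10.7% of 12948 tested genes were. That count does not set the 10 genes apart. In hADMSCs-Exo vs LFG without LFG 3, the log2 fold change of Cd34 was -1.91 (SE 0.62, edgeR adjusted p = 0.102), and none of the 10 was called, against 5.97% of 12955 tested genes (773 genes). DESeq2 on the same libraries called Cd34 there, with -1.90 and an adjusted p = 0.0351, beside 10.3% of all tested genes, and limma with voom and quality weights did not (adjusted p = 0.0532). Stab1 came next, with a log2 fold change of -0.70 (SE 0.28, edgeR adjusted p = 0.111) and -0.60 (SE 0.26, edgeR adjusted p = 0.183). Cd34 and Stab1 were the 2 genes of the 10 whose groups then did not overlap, both lower than LFG 1 and LFG 2 in both comparisons. With 2 libraries against 3 that was true of 55.4% of tested genes in REG vs LFG and 48.8% in hADMSCs-Exo vs LFG, so it does not set them apart. Clec4g kept 0.92 (SE 0.37, edgeR adjusted p = 0.119) and Stab2 0.61 (SE 0.38, edgeR adjusted p = 0.279) in REG vs LFG. Plvap was at -0.32, Pecam1 at -0.28, Lyve1 at -0.64, Fcgr2b at 0.37, Oit3 at 0.84 and Gata4 at 0.23 there. In hADMSCs-Exo vs LFG the other values were 0.37 for Stab2, -1.25 for Lyve1, -0.041 for Clec4g, -0.43 for Fcgr2b, 0.0085 for Oit3, 0.077 for Gata4, -0.78 for Plvap and -0.82 for Pecam1. Without LFG 3 the medians were 0.37 for the sinusoidal and -0.32 for the capillary genes in REG vs LFG, and -0.041 and -0.82 in hADMSCs-Exo vs LFG, both beside all-gene medians within 0.0051 of 0.

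**Figure D2:**
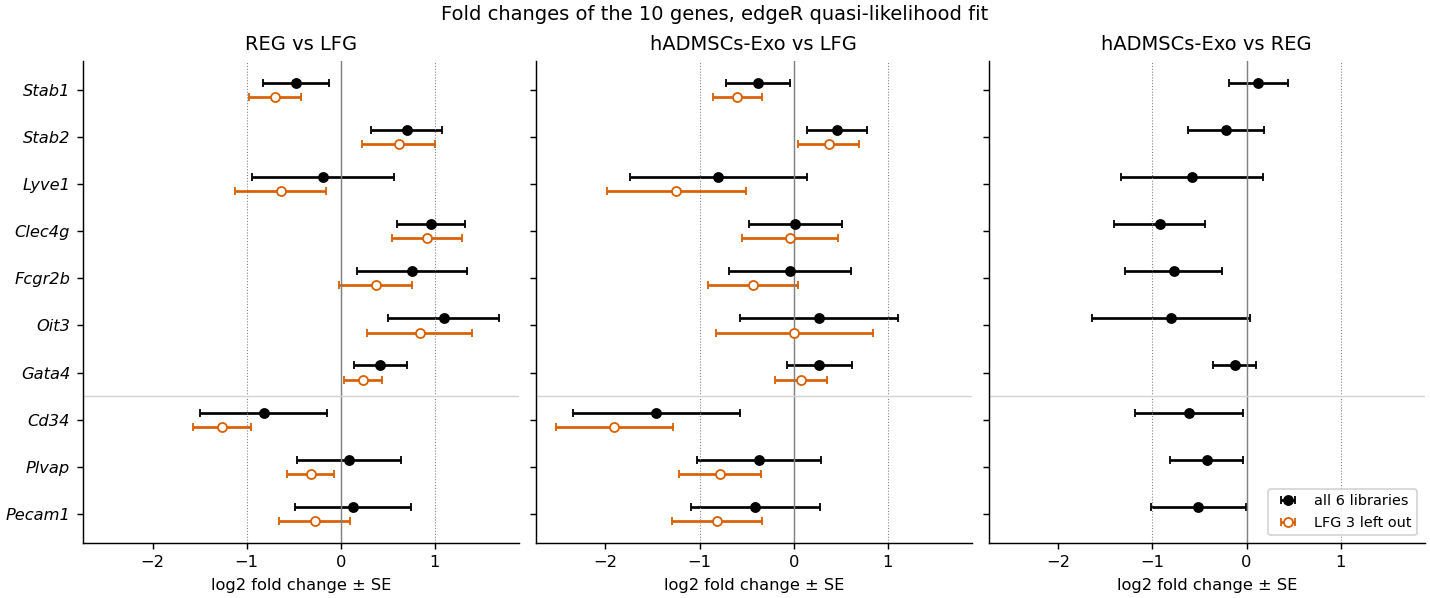
Points show the log2 fold change of each gene with its SE from the edgeR fit, for all 6 libraries (filled) and with LFG 3 left out (open), and dotted lines mark the fold limit of 1. Without LFG 3 the open points move to the left for all 10 genes in both comparisons with LFG, and Cd34 reaches -1.26 and -1.91.

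The comparison of hADMSCs-Exo with REG, which received PBS over the same 4 weeks, addresses the exosomes themselves. Of the 10 genes 9 had a lower fitted level in hADMSCs-Exo, but none was called, against 1 of 12337 tested genes (0.00811%). All 10 overlapped, where 15.5% of tested genes did not. At an unadjusted p under 0.05 and the same fold limit 266 genes passed and by DESeq2 67, none of the 10 in either. The lowest unadjusted p of the 10 was that of Clec4g, at -0.92 (SE 0.49, edgeR adjusted p = 0.557), followed by Fcgr2b at -0.77 (SE 0.52, edgeR adjusted p = 0.634). Stab1 stood at 0.12 (SE 0.31), Stab2 at -0.22 (SE 0.40) and Gata4 at -0.13 (SE 0.23). Lyve1 was at -0.58 (SE 0.75), Oit3 at -0.80 (SE 0.84), Cd34 at -0.61 (SE 0.57), Plvap at -0.43 (SE 0.39) and Pecam1 at -0.51 (SE 0.51), all with edgeR adjusted p-values of at least 0.727.

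The size of these differences depended on single libraries. hADMSCs-Exo 2 was the highest of its group for all 10 genes, while it was the highest for 33.4% of the 12760 genes passing the filter over 9 libraries. REG 1 was the highest of its group for 7 of 10 genes, against 33.4% of all genes. The median log2 fold change in hADMSCs-Exo vs REG was -0.58 over the sinusoidal genes and -0.51 over the capillary genes, beside 0.0080 over all genes. Without hADMSCs-Exo 2 the medians were -1.52 and -1.24, and without REG 1 they were -0.015 and -0.33. No gene of the 10 was called in either case.

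As lists, the sinusoidal and capillary genes lay near the general level of endothelial RNA in each library, while single genes departed from it by up to 1.21 on the log2 scale. A list of 17 pan-endothelial genes, such as Cdh5 of the junctions and the receptor Tie1, was used as a measure of it, as the mean log2 difference from each gene's 9-library mean. REG 1 had the highest level on it (1.02), followed by LFG 2 (0.62) and hADMSCs-Exo 2 (0.49), and LFG 3 (-1.06), hADMSCs-Exo 1 (-0.83) and hADMSCs-Exo 3 (-0.71) the lowest. The sinusoidal genes gave 1.05, 0.37 and 0.79 in the first 3 of these libraries and -0.87, -0.68 and -0.83 in the last 3. The capillary genes gave 0.61, 1.01 and 0.61, and then -1.41, -1.32 and -0.55. In every library the mean of the sinusoidal genes lay within 0.297 of the pan-endothelial mean on the log2 scale, and that of the capillary genes within 0.528.

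Lower fitted levels in hADMSCs-Exo than in REG were also found in the pan-endothelial list. All 17 pan-endothelial genes had a fitted level below that in REG (median log2 fold change -0.64), with none called. Of the 17, 15 were highest of the group in hADMSCs-Exo 2 and 16 were highest of REG in REG 1. Against LFG, 14 of 17 were higher in REG (median 0.43) and 14 of 17 lower in hADMSCs-Exo (median -0.34), with none called. Without LFG 3 these counts were 10 higher in REG (median 0.19) and 16 lower in hADMSCs-Exo (median -0.63). None was called there either, beside 10.7% and 5.97% of all tested genes.

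**Figure D3:**
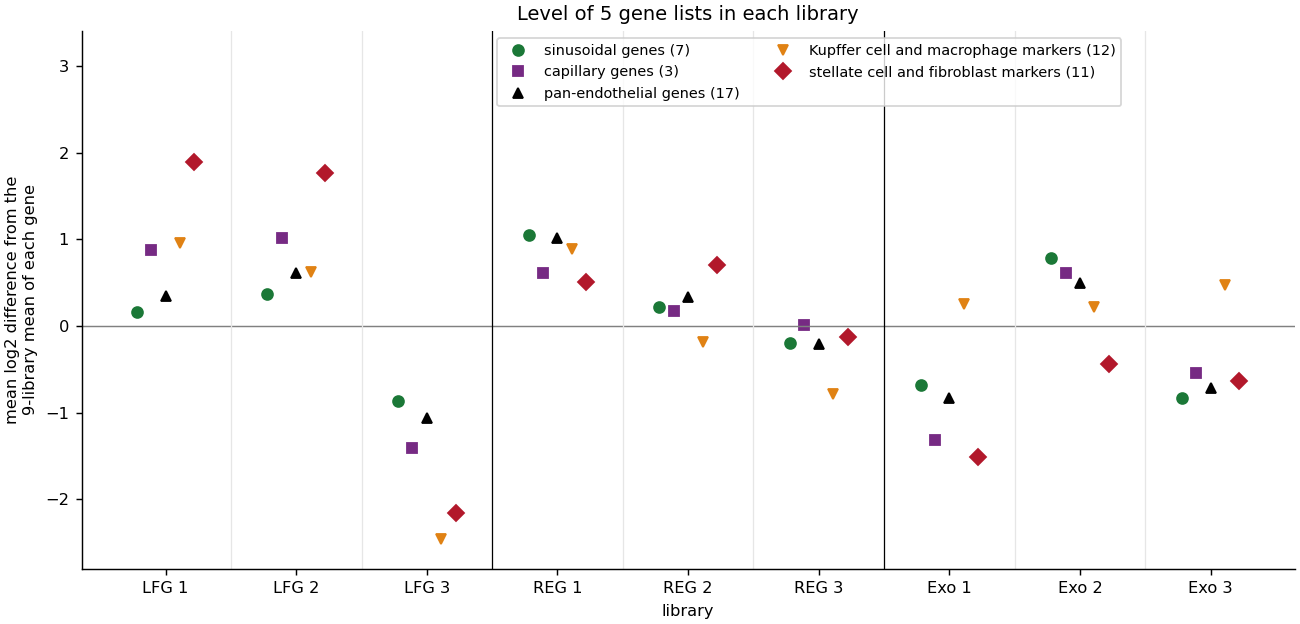
Points give, for each library, the mean log2 difference of a list from the 9-library mean of its genes, with the number of genes tested in parentheses (Exo is hADMSCs-Exo). The sinusoidal, capillary and pan-endothelial lists lie close together in most libraries, and the stellate cell and fibroblast markers run from 1.89 in LFG 1 to -2.16 in LFG 3.

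The capillary genes stood highest over the sinusoidal genes in LFG 1 and LFG 2. The sinusoidal minus capillary difference in mean log2 level was -0.71 and -0.64 there, but 0.54 in LFG 3, the second highest of the 9 after hADMSCs-Exo 1. It was 0.44, 0.046 and -0.21 in REG 1, 2 and 3 and 0.64, 0.18 and -0.29 in hADMSCs-Exo 1, 2 and 3. Between single genes, log2 CPM of Cd34 minus that of Stab2 was -1.72, -1.47 and -3.88 in LFG 1, 2 and 3, -4.04, -3.36 and -2.56 in REG, and -4.74, -3.43 and -3.98 in hADMSCs-Exo. LFG 1 and LFG 2 were the highest of the 9 and LFG 3 fell among the libraries of the other groups. The CPM of Plvap over that of Clec4g did not follow this order, with 4.43, 1.86 and 0.714 in LFG, 0.939, 1.43 and 1.45 in REG, and 1.24, 1.46 and 3.02 in hADMSCs-Exo.

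**Figure D4:**
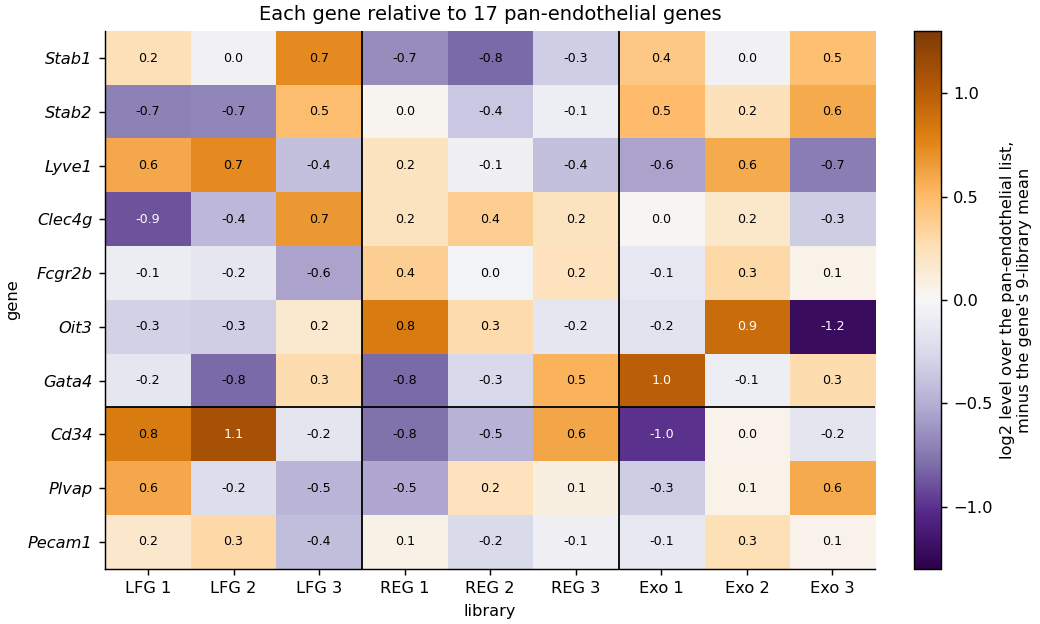
Each cell gives the log2 level of a gene (row) over the mean of 17 pan-endothelial genes in a library (column; Exo is hADMSCs-Exo), minus the gene's mean over the 9 libraries. Cd34 is highest in LFG 1 and LFG 2 (0.82 and 1.09), where Stab2 (-0.71 and -0.69) is at its lowest.

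Set against the pan-endothelial list in this way, Stab2 was lowest in LFG 1 and LFG 2 and highest in hADMSCs-Exo 3 (0.58). Clec4g was likewise lowest in LFG 1 (-0.89) and LFG 2 (-0.44). Stab1 differed from its relative Stab2, with its lowest values in REG 1 and REG 2 (-0.65 and -0.80) and its highest in LFG 3 (0.74). Oit3 spread furthest, from -1.21 in hADMSCs-Exo 3 to 0.90 in hADMSCs-Exo 2, within a single group. Fcgr2b and Pecam1 stayed within 0.55 and 0.41 of their means. These values are levels of a gene relative to others in the same library and carry no test.

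In LFG, Cd34 and markers of stellate cells and fibroblasts were high and low in the same libraries. The 12 stellate cell and fibroblast markers, which include the collagens Col1a1, Col1a2 and Col3a1, summed to 1319, 874 and 67.3 CPM in LFG 1, 2 and 3, to 316, 327 and 192 CPM in REG and to 140, 166 and 190 CPM in hADMSCs-Exo. They were therefore high in the same 2 LFG libraries as Cd34 and low in LFG 3. In REG the order was reversed, Cd34 being lowest in REG 2 and highest in REG 3. In hADMSCs-Exo Cd34 was highest in replicate 2, as was the mean log2 level of the markers (-1.51, -0.44 and -0.64 in replicates 1, 2 and 3), while their summed CPM was highest in replicate 3. With all libraries 0 of 11 tested markers of this list were called in either comparison with LFG. Without LFG 3, 5 of 11 were called lower in REG, where 10.7% of all tested genes were called, and 9 of 11 lower in hADMSCs-Exo, where 5.97% were. Col1a1 had log2 fold changes of -3.15 (SE 0.35, edgeR adjusted p = 0.0109) and -4.38 (SE 0.41, edgeR adjusted p = 0.00952). In hADMSCs-Exo vs REG 10 of 11 were lower (median log2 fold change -1.19), 8 of them without overlap, beside 15.5% of all tested genes, and none was called. The part of these cells in the values of the 10 genes was not tested.

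Stab1, Lyve1 and Fcgr2b are also known from macrophages. The 12 Kupffer cell and macrophage markers summed to 2294, 1763 and 217 CPM in LFG, 2078, 1069 and 721 CPM in REG and 1383, 1261 and 1542 CPM in hADMSCs-Exo. Within LFG and REG their order matched that of the endothelial genes at the low end, LFG 3 and REG 3, while in hADMSCs-Exo the highest library was replicate 3 and not replicate 2. None of the 12 was called with all libraries. Without LFG 3, 10 of 12 were lower in both REG and hADMSCs-Exo (median log2 fold change -0.69 and -0.64). The F4/80 gene Adgre1 was then the 1 of 12 called, lower in hADMSCs-Exo, beside 5.97% of all tested genes, and 9 of 12 lay below LFG 1 and LFG 2 without overlap there, beside 48.8%. Their part in the values of these 3 genes was not tested. No B cell, leukocyte, mesothelial, platelet or hepatocyte marker was called with all libraries, and without LFG 3 the leukocyte gene Ptprc and the mesothelial gene Wt1 were called lower in REG, 1 of 8 and 1 of 5 tested, where 10.7% of all tested genes were called. Ptprc differed from most of its list, of which 6 of 8 genes were higher in REG without LFG 3 (median log2 fold change 0.53). With all libraries, 7 of 8 were higher in hADMSCs-Exo than in LFG (median 1.05), 6 of them without overlap, beside 12.3% of all tested genes. Of the lymphatic markers, Mmrn1 had at most 3.83 CPM, in LFG 2, and 0 CPM in hADMSCs-Exo 1, and Prox1, at 49.1 to 127 CPM, is also a hepatocyte gene.

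Of 17 other sinusoidal genes listed, 16 were tested with all libraries, and 13 were higher in REG than in LFG (median log2 fold change 0.28) and 10 lower in hADMSCs-Exo than in LFG (median -0.23), with none called. Without LFG 3 the excess of higher genes in REG was gone, with 9 of 17 higher (median 0.015), and 13 of 16 were lower in hADMSCs-Exo (median -0.49). The smallest p-values in REG vs LFG were those of Dnase1l3, a secreted DNase, at 1.33 (SE 0.60, edgeR adjusted p = 0.463), and the receptor Gpr182 at 0.99 (SE 0.55, edgeR adjusted p = 0.535). In hADMSCs-Exo vs REG 14 of 16 were lower (median -0.60), led by Wnt9b, a Wnt ligand of central vein and sinusoidal endothelium, at -0.83 (SE 0.30, edgeR adjusted p = 0.448). Wnt9b had 5.38, 7.37 and 1.51 CPM in LFG, 3.51, 3.53 and 3.46 CPM in REG, and 1.49, 2.65 and 1.77 CPM in hADMSCs-Exo, so hADMSCs-Exo lay wholly below REG, one of the 15.5% of tested genes that did not overlap. Without LFG 3 it was the only gene of this list called, lower in hADMSCs-Exo than in LFG by a log2 fold change of -1.69 (SE 0.35, edgeR adjusted p = 0.0381), beside 5.97% of all tested genes.

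Genes of continuous capillaries, veins and sprouting vessels were mostly scarce, and up to 5 of 16 had no read in a library. With all libraries 12 were tested in REG vs LFG (4 higher, 8 lower, median -0.063) and 10 in hADMSCs-Exo vs LFG (2 higher, 8 lower, median -0.58), with none called. Without LFG 3, 12 were tested in both, 8 being lower in REG (median -0.45) and 10 lower in hADMSCs-Exo (median -1.04). Col15a1, a basement membrane collagen of capillarized sinusoids, was then called lower in hADMSCs-Exo, with a log2 fold change of -1.16 (SE 0.22, edgeR adjusted p = 0.0302), and was at -0.65 (SE 0.19, edgeR adjusted p = 0.0524) in REG. It was the 1 of 12 called in hADMSCs-Exo vs LFG without LFG 3, beside 5.97% of all tested genes. Its CPM was 26.4, 20.6 and 5.59 in LFG, 15.3, 13.0 and 15.7 in REG and 12.7, 9.34 and 9.49 in hADMSCs-Exo. The highest hADMSCs-Exo library was thus below the lowest of REG, in a comparison where 15.5% of all tested genes did not overlap. That difference had a log2 fold change of -0.49 (SE 0.18, edgeR adjusted p = 0.463). Vwf, the clotting factor carrier of larger vessels, had 13.6, 24.5 and 4.79 CPM in LFG, 20.1, 12.3 and 8.95 CPM in REG and 3.86, 10.9 and 6.14 CPM in hADMSCs-Exo.

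Of 18 genes of VEGF, angiopoietin and Notch signaling, 17 were tested in REG vs LFG (7 higher, median -0.024) and 15 in hADMSCs-Exo vs LFG (7 higher, median -0.30), with none called. Without LFG 3, 6 of 17 were higher in both comparisons, with medians of -0.25 and -0.61. The Notch ligands Dll4 and Jag1 had the smallest p-values in REG vs LFG and lay in opposite directions, at 1.49 (SE 0.60, edgeR adjusted p = 0.430) and -0.97 (SE 0.39, edgeR adjusted p = 0.432). Jag1 had 7.27, 6.87 and 5.23 CPM in LFG, 1.97, 3.03 and 4.90 CPM in REG and 4.16, 4.40 and 2.97 CPM in hADMSCs-Exo. Dll4 had 1.303, 1.33 and 0.443 CPM in LFG, 4.19, 3.20 and 1.44 CPM in REG and 2.56, 4.82 and 0.443 CPM in hADMSCs-Exo. For Jag1 all LFG libraries, LFG 3 included, were above all REG and hADMSCs-Exo libraries, and for Dll4 all were below REG, in comparisons where 18.9% and 12.3% of all tested genes did not overlap. Vegfc, a growth factor of lymphatic vessels, had 7.61, 6.82 and 2.75 CPM in LFG, 4.44, 4.63 and 2.98 CPM in REG and 2.50, 2.11 and 2.97 CPM in hADMSCs-Exo. Without LFG 3 it was called lower in hADMSCs-Exo than in LFG (log2 fold change -1.51, SE 0.29, edgeR adjusted p = 0.0304), and the Notch target Hey1 was called lower in REG (-1.55, SE 0.39, edgeR adjusted p = 0.0372). That was 1 of 17 tested in each comparison, beside 5.97% and 10.7% of all tested genes, so the calls do not set the list apart.

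The genes differed in how closely they tracked each other. The root mean square (RMS) difference of their log2 CPM, centred on each gene's own mean over the 9 libraries, was smallest between Fcgr2b and Pecam1 (0.239) and next between Plvap and Pecam1 (0.395). The farthest pair was Stab2 and Cd34 (1.04). Among 12759 other genes the nearest to Plvap was Gdf2, which encodes BMP9 (RMS 0.207), followed by Gpr183 and Slc35e4 (0.219 each), with Pecam1 at rank 66 and Fcgr2b at rank 151. Nearest to Cd34 were Nynrin (0.292), Paqr4 (0.327) and Efnb2 (0.349), to Stab2 Prickle1 (0.222), Tspyl4 (0.257) and Vipr1 (0.267), and to Gata4 Tango6 (0.155), Gtf3c3 (0.174) and Zfp111 (0.179). No other of the 10 genes came closer to Cd34 than rank 182, that of Pecam1, to Stab2 than rank 440, that of Clec4g, or to Gata4 than rank 3827, that of Stab2. These distances rest on 9 libraries that share their groups and depths, and describe likeness of level only.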

How the data were processed

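Liver RNA of LFG, REG and hADMSCs-Exo, 3 libraries each, was analysed (a further 3 samples, of hADMSCs, were not analysed here). Per the labels, RNA was extracted with Trizol and libraries were made with an NEBNext Ultra kit and run on a NovaSeq. The submitters' processing notes list cutadapt 1.15, HISAT2 2.0.5, HTSeq 0.9.1 and DESeq 1.30.0, and the build GRCm38. The authors deposited whole-number counts of reads per gene, without normalization, and beside them FPKM, which corrects these counts for gene length and depth, used here only to order genes by level. The strand setting is not given in the sources used here.

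Counts were tested in R 4.3.3 with edgeR 4.0.16 (TMM, its filter on low counts, quasi-likelihood test), with the 6 libraries of each pair of groups in a fit. Log2 CPM used a prior count of 2. The tests were checked on simulated data, in which no library departed from its group across genes as LFG 3 does. Alternatives were RLE size factors, no filter, at least 10 counts in every library, DESeq2 1.42.0, limma 3.58.1 with voom and quality weights, a fit of all 9 libraries, a block for the replicate number, no adjustment of p, and leaving out each library in turn. Library totals as the only scaling, and combinations of these with LFG 3 left out, were added after seeing the data. The 10 genes, the lists and the tests were chosen with earlier results of these data known. Values of all 10 genes are given, and from each other list up to 2 genes with the smallest p per comparison, or any gene called. The deviations of same-numbered hADMSCs-Exo and LFG libraries from their group means had correlations of 0.101, 0.308 and 0.180 across genes. Libraries of unlike number were not compared, so these values cannot show whether the numbers pair them. Promoter sequences are from RefSeq. Figures were drawn with matplotlib 3.10.9.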

Additional observations from a re-analysis of the deposited data

How the results depend on the processing

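The count of the 10 genes past the thresholds was 0 in all 3 comparisons with all libraries and under most alternatives. It rose to 1 (Cd34) in REG vs LFG with voom and quality weights and without LFG 3, beside 10.3% and 10.7% of all tested genes. Without LFG 3 it was also 1 under RLE size factors, DESeq2 and voom, beside 10.5%, 13.9% and 14.1%, and with no fold limit. It rose to 2 (Cd34 and Stab1) with library totals as the only scaling and LFG 3 left out. There 18.8% of all tested genes were called and the all-gene median was -0.43. In hADMSCs-Exo vs LFG it rose to 1 without LFG 3 under DESeq2 and under library totals, beside 10.3% and 10.8% of all tested genes. The cause of these changes was not tested beyond the left-out library.

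With a library left out, Cd34 ranged from -1.26 to -0.25 in REG vs LFG and from -2.39 to -0.89 in hADMSCs-Exo vs LFG. Directions turned only for genes that were not called. In REG vs LFG, Plvap was at -0.051 with voom, -0.28 with library totals and between -0.32 and 0.60 with a library left out. Pecam1 was at -0.54 and -0.18 in the first 2 of these and between -0.35 and 0.58 in the last. Lyve1 was between -0.77 and 0.31 with a library left out. In hADMSCs-Exo vs LFG with voom, Clec4g was at -0.47 and Oit3 at -0.89, and with library totals Clec4g was at -0.091. With a library left out of that comparison, Clec4g ranged from -0.73 to 0.32, Oit3 from -1.33 to 0.75, Fcgr2b from -0.77 to 0.31, Plvap from -0.83 to 0.15 and Pecam1 from -1.13 to 0.046. In hADMSCs-Exo vs REG, Stab1 ranged from -0.19 to 0.49, Stab2 from -0.61 to 0.32, Lyve1 from -2.001 to 0.050, Gata4 from -0.33 to 0.077 and Pecam1 from -1.25 to 0.013, and the medians from -1.52 to -0.015 (sinusoidal) and -1.24 to -0.20 (capillary).

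With the replicate number as a block, none of the 10 genes was called in any comparison. In hADMSCs-Exo vs LFG the block put the sinusoidal median at -0.16 and the capillary median at -0.31. With voom these medians were -0.63 and -1.07. The block put Lyve1 at 0.0069 in REG vs LFG, and Clec4g at -0.16, Fcgr2b at 0.0044 and Oit3 at -0.34 in hADMSCs-Exo vs LFG, all with directions opposite to the fit without it. Whether the numbers pair the libraries cannot be told from the data, since libraries of unlike number were not compared. Same-numbered libraries gave correlations of 0.415, -0.202 and 0.305 (REG and LFG), and 0.159, 0.0094 and 0.034 (hADMSCs-Exo and REG). For hADMSCs-Exo and LFG they were 0.101, 0.308 and 0.180. At 11 to 22 reads for Cd34 or Lyve1 in the lowest libraries, counting error adds to the spread between libraries.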
